A study of Mus musculus with 6 samples.

Results

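Mitochondrial ribosomal proteins were followed through the retinoic acid (RA) response of mouse embryonic stem cells. The members are the genes whose symbol begins with Mrpl or Mrps followed by a digit, which took in 76 of the 20460 distinct genes of the deposited expression table, each present once. By the place of the protein in the mammalian mitoribosome, 49 of them belong to the large subunit and 26 to the small subunit, and the remaining member is Mrps36. All 76 passed the filter on low values (a mean of at least 1 FPKM, a level corrected for transcript length and sequencing depth), so none was left out for being low.

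The RNA came from J1 embryonic stem cells of strain 129S4/SvJae, grown on gelatin with the cytokine LIF. Unmodified wild-type cells, cells carrying a scramble short hairpin RNA (shRNA) and cells carrying an shRNA against Carm1, which encodes an arginine methyltransferase, each received ethanol vehicle or 1 µM RA for 48 h. There was 1 library per line and treatment, 6 in all, and each shRNA is represented by 1 line, so a p-value measures the spread between these libraries and a line contrast cannot tell the shRNA from other features of that line. The series asked what CARM1 does while RA drives stem cells to differentiate. Where 3 values stand in a row, they follow the order wild-type, scramble, Carm1 shRNA.

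The mitoribosome is the ribosome inside mitochondria. It translates the few messenger RNAs of the mitochondrial genome, all of which encode membrane subunits of the respiratory chain and ATP synthase. Its protein components are all encoded in the nucleus, made in the cytosol and imported, and they assemble on RNAs that the mitochondrial genome supplies. Some of the proteins have a homologue in bacterial ribosomes and others were added during the evolution of mitochondria. Pluripotent stem cells rely strongly on glycolysis, and their mitochondria change in form and use when the cells differentiate.

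The labels were checked on known genes. In the Carm1 shRNA line the Carm1 transcript was at 8.49 FPKM (vehicle) and 6.73 FPKM (RA), and the other 4 libraries lay between 29.5 and 37.0 FPKM. All 5 listed RA-responsive genes rose and 5 of 6 pluripotency markers fell with RA, so the cells carried stem cell markers and responded. Of 8 fibroblast and feeder markers 5 were tested, 4 of which rose and 1 of which fell. Their summed level was 101 to 129 FPKM in the vehicle libraries and 183 to 238 FPKM in the RA libraries. Nearly all of it was Fn1, which rose by 0.78 on the log2 scale. From far lower levels Pdgfrb rose by 2.35, Col1a2 by 1.67 and Col1a1 by 1.3, while Thy1 changed by -0.62. Dcn, too low to be tested, went from 0 with vehicle to 0.217, 0.371 and 0.362 FPKM with RA. Postn was listed at 0 in all 6 libraries, and Lum in all but the Carm1 shRNA library with RA (0.0163 FPKM). The part of these markers in the results was not tested. In bulk RNA, fewer cells of a type and less RNA per cell cannot be told apart. Depth, estimated from the steps between the lowest values, lay between 26300000 and 34800000 reads. These estimates are rough, since the most common step held 4 to 15 genes per library. They put the member with fewest reads, Mrpl41, near 167 reads in its lowest library (a counting error of 7.73%). The median member stood near 1480 reads (2.60%).

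Most mitochondrial ribosomal protein genes fell with RA. In a limma fit across all genes with the line as block, 47 of the 76 members were lower with RA and 3 were higher at an adjusted p under 0.05, and 26 did not pass. Among all 11227 genes tested, 20.7% were lower, 42.9% were higher and 63.6% passed in either direction. In the values as deposited the members thus ran against the prevailing direction. That direction depended on scaling. Over all genes 3662 were higher and 3631 lower after median-of-ratios scaling, and 2992 higher and 3847 lower after quantile normalization. The drops were small. The median change of the members was -0.32 on the log2(FPKM + 1) scale, against 0.14 for all genes tested, and the called drops ranged from -0.23 to -0.72. In no line did a fall reach 2-fold (0 of 76 members). Mean levels spanned 6.52 to 193 FPKM with a median of 44.6 FPKM. The lowest were Mrps25, Mrpl19 (6.60 FPKM), Mrpl35 (7.87 FPKM), Mrpl41 (9.22 FPKM) and Mrpl17 (13.2 FPKM), and the highest were Mrpl52, Mrpl42 (149 FPKM), Mrpl18 (115 FPKM), Mrps16 (114 FPKM) and Mrpl34 (113 FPKM).

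The shift can be seen in the libraries themselves. The members together summed to 4235, 4338 and 4198 FPKM with vehicle and to 3672, 3480 and 3468 FPKM with RA. The RA sums were 86.7%, 80.2% and 82.6% of the vehicle sums, while the total of all genes in the table was 94.7% to 94.9% of vehicle in the same lines. All 3 RA libraries lay below all 3 vehicle libraries for 45 members, where 20.5% of all genes did so, and above them for 3 members, where 40.5% of all genes did so. The other 28 members overlapped between treatments. The change was below 0 in each of the 3 lines for 58 members (29.9% of all genes) and above 0 in each for 13 (52.3% of all genes).

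**Figure D1:**
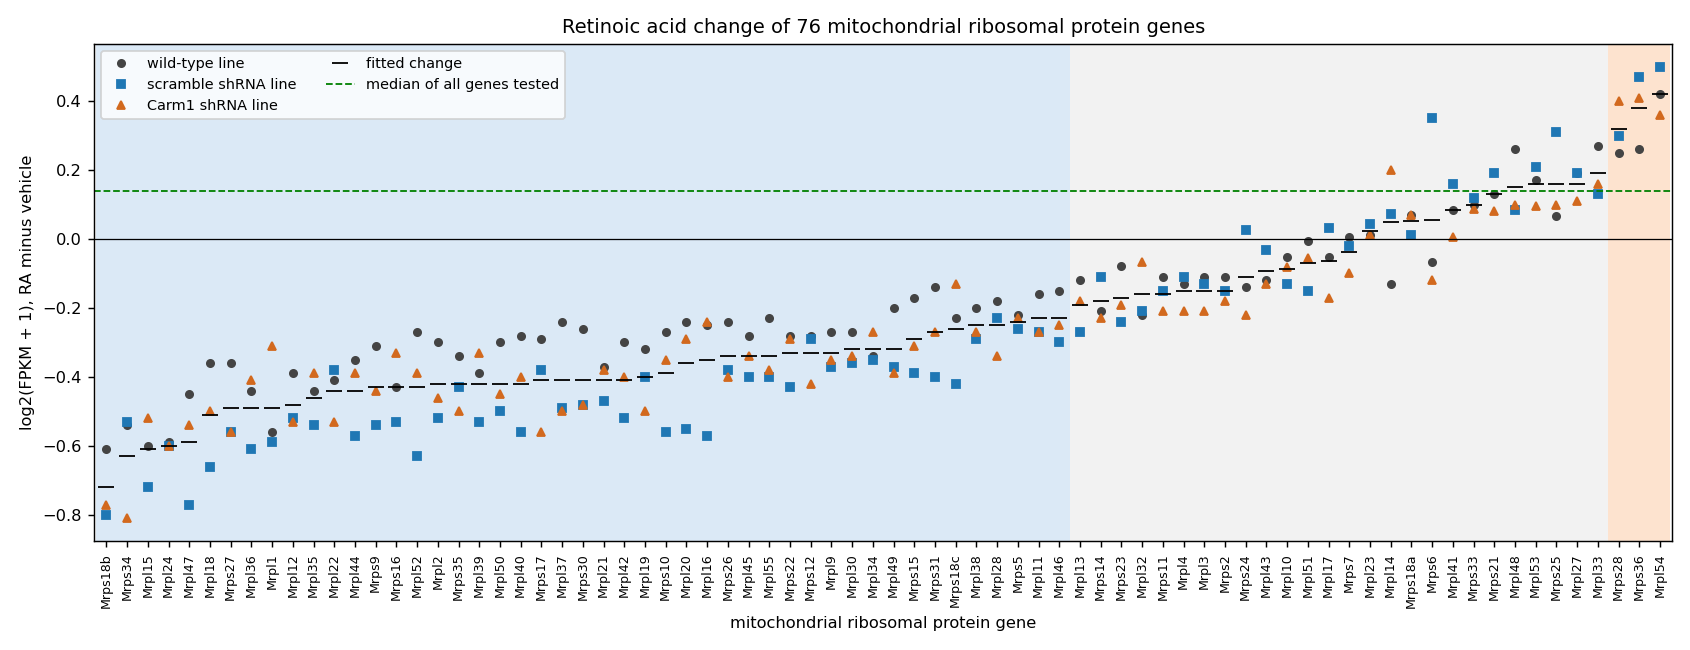
The change with RA on the log2(FPKM + 1) scale (vertical axis) is plotted for each of the 76 members (horizontal axis, ordered by the fitted change), with 1 point per line and a dash for the fitted change. Blue shading marks the 47 members called lower, grey the 26 that did not pass and orange the 3 called higher, and the dashed line is the median of all genes tested at 0.14.

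The count of members called lower depended on the lines in the fit and on the scaling between libraries. It was 27 without the scramble line, 35 without the Carm1 shRNA line and 46 without the wild-type line, and the members called higher were then 1, 2 and 3. Over all genes the lower calls went from 2325 to 1381, 1506 and 2299 in the same fits. Median-of-ratios scaling moved the median of all genes from 0.14 to 0.0015 and quantile normalization moved it to -0.054. Relative to the median of all genes, the members' median stood at -0.46 as deposited and at -0.48 and -0.23 under these scalings. With them 61 and 51 members were lower and 2 and 5 were higher, while the calls over all genes went from 4816 higher and 2325 lower to 3662 and 3631, and to 2992 and 3847.

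Mrps18b fell furthest. It encodes 1 of the 3 mammalian relatives of a small-subunit protein of bacteria, and its gene lies on chromosome 17 (36047330 to 36053314, build mm9, as are all positions of genes here). The protein is counted here as specific to mitochondria because another relative, Mrps18c, takes the bacterial position. Its level was 94.8, 96.9 and 97.7 FPKM with vehicle and 61.9, 55.4 and 57.0 FPKM with RA. The vehicle libraries differed from each other by far less than from the RA libraries, and the change was -0.72 ± 0.07 (SE, limma adjusted p = 0.00117).

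The other relatives of that bacterial protein gave other values. Mrps18c (chromosome 5, 101227778 to 101233486) stood at 91.9, 81.1 and 73.0 FPKM with vehicle and at 78.4, 60.3 and 66.5 FPKM with RA. Its groups overlapped, since wild-type cells with RA lay above Carm1 shRNA cells with vehicle, and its change of -0.26 ± 0.08 passed (limma adjusted p = 0.0362), though not without the filter on low values, after quantile normalization, without the replicate block or when any one line was left out (adjusted p between 0.0526 and 0.167). Mrps18a (chromosome 17, 46247953 to 46265857), whose protein sits in the large subunit, stood at 34.3, 37.2 and 34.3 FPKM with vehicle and at 36.1, 37.6 and 36.0 FPKM with RA. Its change of 0.051 ± 0.062 did not pass (limma adjusted p = 0.493). The differences between these paralogues were not tested.

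Among the other small-subunit genes, Mrps34 and Mrps27 fell most. Mrps34 (chromosome 17, 25032065 to 25033218), a component with no bacterial homologue, went from 36.5, 33.8 and 43.7 FPKM to 24.7, 23.1 and 24.6 FPKM, a change of -0.63 ± 0.08 (limma adjusted p = 0.00246). Its RA levels were close to one another although its vehicle levels were not, and the Carm1 shRNA line had the highest vehicle level. Mrps27 (chromosome 13, 100114741 to 100185516), a pentatricopeptide repeat protein of the mitoribosome, went from 32.8, 37.3 and 37.1 FPKM to 25.3, 25.0 and 24.9 FPKM (-0.49 ± 0.07, limma adjusted p = 0.00342). Mrps9 (-0.43 ± 0.07), Mrps16 (-0.43 ± 0.07), Mrps35 (-0.42 ± 0.07) and Mrps17 (-0.41 ± 0.08) followed. Mrps12, the homologue of the bacterial decoding-site protein, fell by 0.33 on the log2 scale. In all, 15 of 26 small-subunit genes were lower and 1 was higher, with a median change of -0.27. Without the scramble line 8 of them were lower and without the Carm1 shRNA line 9.

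Of the 47 falling genes 32 belong to the large subunit. Mrpl15 (chromosome 1, 4763279 to 4775807) went from 80.4, 72.2 and 81.7 FPKM with vehicle to 52.6, 43.5 and 56.7 FPKM with RA (-0.61 ± 0.07, limma adjusted p = 0.00169). Mrpl24 (chromosome 3, 87723466 to 87727355) went from 43.1, 48.2 and 46.7 FPKM to 28.2, 31.3 and 30.6 FPKM (-0.60 ± 0.06, limma adjusted p = 0.00126). It kept 65.4%, 65.1% and 65.4% of its vehicle level in the 3 lines, a narrow spread, but its span overlaps that of Rrnad1 by 833 bases and reads there cannot be assigned without strand. The next to fall also have bacterial homologues. Mrpl47 went from 44.6, 46.1 and 38.7 FPKM to 32.4, 26.6 and 26.4 FPKM (-0.59 ± 0.08, limma adjusted p = 0.0032). Mrpl18, which in human cells helps carry 5S ribosomal RNA into mitochondria, went from 123, 147 and 136 FPKM to 95.0, 92.8 and 96.1 FPKM (-0.51 ± 0.08, limma adjusted p = 0.00417). Mrpl36 went from 50.8, 53.2 and 47.4 FPKM to 37.1, 34.6 and 35.3 FPKM (-0.49 ± 0.07, limma adjusted p = 0.00327). In each of these genes all RA libraries lay below all vehicle libraries.

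Mrpl12 encodes the protein of the flexible stalk that recruits translation factors to the ribosome, and in human cells it has also been found with the mitochondrial RNA polymerase. The gene lies on chromosome 11 (120345983 to 120350068) and went from 136, 123 and 125 FPKM with vehicle to 104, 85.5 and 86.4 FPKM with RA. The groups did not overlap, and the change was -0.48 ± 0.07 (limma adjusted p = 0.00288). Mrpl52, the most abundant member on the FPKM scale (mean 193 FPKM), went from 206, 241 and 219 FPKM to 171, 155 and 166 FPKM. Its change of -0.43 ± 0.09 (limma adjusted p = 0.00997) was smallest in the wild-type line, at -0.27, and most negative in the scramble line, at -0.63. Over the large subunit 32 of 49 genes were lower and 1 was higher, with a median change of -0.33, and 19 were lower without the scramble line.

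The members were also split by evolutionary origin. Of 46 members with a bacterial homologue 28 were lower and 1 was higher, with a median of -0.31, and of 29 members specific to mitochondria 19 were lower and 1 was higher, with a median of -0.33. The smallest median among the 4 combinations, -0.21, belonged to the 16 small-subunit genes with a bacterial homologue, of which 8 were lower. The differences between these classes were not tested. The correlation between mean log2 level and RA change over the 76 members was -0.12 (Pearson) and -0.08 (Spearman). These values are across genes, which share the libraries and are not independent.

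**Figure D2:**
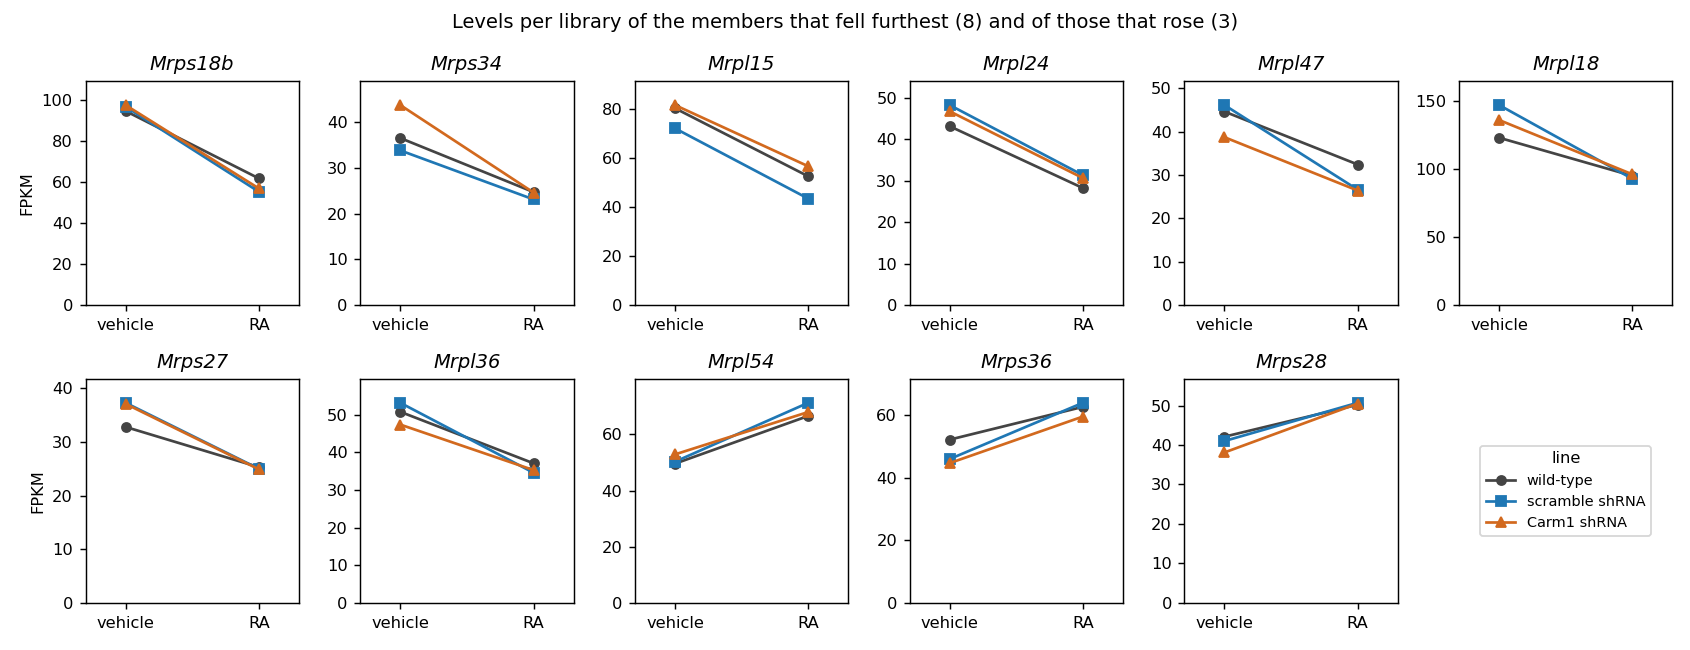
The FPKM of each library is plotted with vehicle and with RA for the 8 members that fell furthest and the 3 that rose, each axis starting at 0 and lines joining libraries of the same cell line. In Mrps18b the vehicle libraries sit between 94.8 and 97.7 FPKM and the RA libraries between 55.4 and 61.9 FPKM, and in Mrpl54 the order is the opposite.

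The 3 members that rose were Mrpl54, Mrps36 and Mrps28. Mrpl54 (chromosome 10, 80727467 to 80729671), a large-subunit component specific to mitochondria, went from 49.6, 50.3 and 52.9 FPKM with vehicle to 66.6, 71.3 and 68.0 FPKM with RA. Its groups were well apart, and the change was 0.42 ± 0.07 (limma adjusted p = 0.00395). Mrps36 (chromosome 13, 101505895 to 101514614) was first listed as a small-subunit protein and was later assigned to the 2-oxoglutarate dehydrogenase complex of the citric acid cycle. It went from 52.2, 46.0 and 44.7 FPKM to 62.7, 64.0 and 59.6 FPKM (0.38 ± 0.07, limma adjusted p = 0.00743). The mouse annotation names 3 pseudogenes for it, so the assignment of its reads is uncertain. Mrps28 (chromosome 3, 8802146 to 8923857) went from 42.1, 41.0 and 38.1 FPKM to 50.2, 50.7 and 50.5 FPKM (0.32 ± 0.07, limma adjusted p = 0.0102). Mrpl54 stayed past the threshold under every alternative tried. Mrps36 and Mrps28 missed it without the scramble line (limma adjusted p = 0.0508 and 0.0541). Mrps28 also missed it without the Carm1 shRNA line (limma adjusted p = 0.0641) and after median-of-ratios scaling (0.16, limma adjusted p = 0.098).

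Among the 26 members that did not pass, 14 had a fitted change below 0 and 12 above. Mrpl23 showed the smallest change. This gene, which has 1 named pseudogene, lies beside the imprinted H19 and Igf2 genes on chromosome 7 (149719022 to 149726647) and stood at 48.6, 49.8 and 47.6 FPKM with vehicle and 49.1, 51.3 and 48.0 FPKM with RA (0.022 ± 0.061, limma adjusted p = 0.761). Mrps7 (-0.037 ± 0.063), Mrpl14 (0.048 ± 0.085) and Mrps6 (0.055 ± 0.110) were also close to 0. Mrps6 spans Slc5a3, with 29138 bases in common, and that gene rose by 0.59 on the log2 scale, so reads of either may stand in the other. In all 8 members overlap another gene, and Mrpl48 is another with 1 named pseudogene. Relative to the median change of all genes as deposited, 0.14, values near 0 are low, and 68 of the 76 members lay below it.

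Promoter sequences of the members were searched for motifs. Promoter windows of 300 bases, from 250 before to 50 after the annotated start, were read from RefSeq (build GRCm38.p6), 1 per gene, and 67 of the 76 members had one. Short motifs of factors known to act on nuclear genes for mitochondrial proteins were searched on both strands. The ETS motif CCGGAAG, bound by GABPA among others, was present in 34.3% of the member windows, against 19.3% of windows of the genes tested and 9.12% of all windows. The NRF1 motif, GCGCA and GCGC with 1 base of any kind between them, was present in 17.9%, against 11.4% and 4.78%, and the YY1 motif AAGATGGCG in 11.9%, against 3.57% and 1.49%. Members called lower held the ETS motif in 28.6% of 42 windows and members that did not pass in 45.8% of 24 windows, and the NRF1 motif in 19.0% and 16.7%. The E-box CACGTG was present in 7.46% of member windows, against 10.9% for the genes tested, with 11.9% of the windows of members called lower and 0% of those that did not pass. The nuclear receptor motif AAGGTCA was present in 5.97%, against 3.01%. A direct repeat of AGGTCA with 5 bases between the copies is a form of retinoic acid response element. It was present in 0 of 67 member windows, in 0 of 8510 windows of the genes tested and in 0.0074% of all windows. A match this rare cannot tell whether the members hold such elements. The windows of the members had a median GC content of 58.0%, against 61.7% for the genes tested and 52.7% for all. A match describes letters only and shows no binding. The 100 bases before the start are given 5′ to 3′ for 4 members that fell (Mrps27, Mrpl52, Mrpl12 and Mrpl45, the last with a change of -0.34 ± 0.06), for Mrps18a, which did not pass, and for Mrps36, which rose and has 0 matches to the motifs searched. They were picked with the matches and calls in view, to show the motifs in place. Capitals mark the ETS motif in Mrps27, Mrpl52 and Mrps18a and the NRF1 motif in Mrpl12 and Mrpl45.
Mrps27, chr13:99344686-99344785, plus strand: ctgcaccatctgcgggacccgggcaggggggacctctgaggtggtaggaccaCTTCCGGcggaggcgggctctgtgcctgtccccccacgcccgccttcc
Mrpl52, chr14:54426809-54426908, plus strand: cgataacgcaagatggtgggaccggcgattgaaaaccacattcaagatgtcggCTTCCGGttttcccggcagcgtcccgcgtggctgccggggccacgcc
Mrpl12, chr11:120484537-120484636, plus strand: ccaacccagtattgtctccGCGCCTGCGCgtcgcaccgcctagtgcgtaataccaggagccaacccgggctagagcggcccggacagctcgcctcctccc
Mrpl45, chr11:97315616-97315715, plus strand: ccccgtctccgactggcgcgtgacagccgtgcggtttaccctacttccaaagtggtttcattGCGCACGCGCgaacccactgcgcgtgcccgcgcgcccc
Mrps18a, chr17:46110904-46111003, plus strand: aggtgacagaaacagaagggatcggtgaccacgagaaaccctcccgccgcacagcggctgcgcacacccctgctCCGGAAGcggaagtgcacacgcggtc
Mrps36, chr13:100744660-100744759, minus strand: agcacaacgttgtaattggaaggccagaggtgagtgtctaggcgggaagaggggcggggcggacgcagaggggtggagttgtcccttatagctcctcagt

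In the bases printed, the ETS motif of Mrps27 and that of Mrpl52 begin 48 and 47 bases before the annotated start, and the NRF1 motif of Mrpl12 begins 81 bases before it. That of Mrpl45 begins 38 bases before the start. Outside the bases printed, the windows of Mrpl45 and Mrpl52 hold further matches to the same motifs, at 120 bases before and 15 after the start in Mrpl45 and just after the start in Mrpl52. Mrps18a, which did not pass, carries its ETS motif 26 bases before the start, so the motif occurs near the start in members with either outcome.

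Among the other genes that build and serve the mitoribosome, lower calls outnumbered higher calls in every list. Of 7 mitoribosomal proteins under other symbols 4 were lower and 1 was higher (median -0.26; 5 and 0 after either scaling). Ptcd3, a pentatricopeptide repeat protein of the small subunit, fell by 0.45 on the log2 scale, Gadd45gip1 by 0.40, Aurkaip1 by 0.33 and the GTP-binding protein gene Dap3 by 0.26. Mrp63, a large-subunit protein, rose by 0.23 (limma adjusted p = 0.0488). Of 24 assembly factors 13 were lower and 1 was higher (median -0.21). Median-of-ratios scaling gave 22 and 1 (median -0.37) and quantile normalization 22 and 0 (median -0.42). Over all 11227 genes tested the lower calls rose too, from 2325 to 3631 and 3847. This bears on the scaled counts of every list. Rbfa, which matures the small subunit, went from 44.2, 54.5 and 58.5 FPKM with vehicle to 22.5, 23.4 and 26.5 FPKM with RA (-1.08 ± 0.08, limma adjusted p = 0.000654). That drop exceeds the change of every member. Fastkd2 (-0.65 ± 0.06) and the ribosomal RNA methyltransferase gene Mrm1 (-0.65 ± 0.07) also fell. The RNA methyltransferase gene Trmt2b rose by 0.78 from low levels of 3.07, 2.43 and 1.78 FPKM with vehicle. At a mean of at least 5 FPKM, 0 of 20 assembly factors were higher.

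Of 15 translation factors of mitochondria 6 were lower and 1 was higher (median -0.13; 10 and 1 with median-of-ratios scaling, 11 and 0 with quantile normalization). The ribosome recycling factor gene Mrrf fell by 0.60 on the log2 scale and the elongation factor gene Tufm by 0.33. The release factor gene Mtrf1l rose by 0.30 from low levels of 2.07, 2.21 and 1.95 FPKM with vehicle. At a mean of at least 5 FPKM, 0 of 14 translation factors were higher. Of 22 aminoacyl-tRNA synthetases acting in mitochondria 11 were lower and 1 was higher (median -0.20). The alanyl-tRNA synthetase gene Aars2 fell (-0.66 ± 0.07), while the leucyl-tRNA synthetase gene Lars2 rose by 0.33. With vehicle Lars2 stood at 520, 496 and 451 FPKM, far above Aars2 at 15.6, 18.3 and 20.4 FPKM. Quantile normalization gave 17 lower and 1 higher for this list (median -0.41). Of 25 factors for mitochondrial DNA and RNA 19 were lower and 1 was higher, with a median of -0.35. The transfer RNA processing enzyme gene Elac2 went from 46.1, 44.9 and 45.7 FPKM to 30.8, 25.7 and 28.1 FPKM (-0.68 ± 0.07, limma adjusted p = 0.0014), and the mitochondrial DNA polymerase gene Polg rose by 0.41. Of 22 import and chaperone genes 15 were lower and 3 higher (1 higher and 16 lower after median-of-ratios scaling), with a median of -0.28. They include the outer membrane pore gene Tomm40 (-0.63 ± 0.08) and the prohibitin gene Phb (-0.55 ± 0.06), and on the higher side Spg7 (0.51), a protease gene needed for maturation of Mrpl32 in mouse, Timm17b (0.26) and Timm22 (0.24).

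Nuclear genes for subunits of the complexes that the mitoribosome serves were also counted. Of 36 NADH dehydrogenase subunit genes 7 were lower (19.4%, against 20.7% of all genes) and 4 higher (11.1%, against 42.9%), with a median of -0.03. Ndufb4 (-0.54 ± 0.07) fell furthest and Ndufb7 rose by 0.34. These counts were 18 lower and 0 higher after median-of-ratios scaling. Quantile normalization made them 5 lower and 8 higher, with a median of 0.049. Of 17 genes with an Atp5 symbol, mostly subunits of ATP synthase, 5 were lower (29.4%) and 1 higher (5.88%), with a median of -0.12. Median-of-ratios scaling gave 15 lower and 0 higher, and quantile normalization 2 and 1 with a median of 0.003. The gene that fell furthest there, Atp5sl (-0.44 ± 0.07), and the one that rose, Atp5s (0.31), are not core subunits of the enzyme. Atp5s was low, at 2.32, 2.30 and 2.48 FPKM with vehicle. At a mean of at least 5 FPKM, 0 of 16 Atp5 genes were higher. Of 84 cytosolic ribosomal protein genes 60 were lower (71.4%) and 1 was higher (1.19%), with a median of -0.26. Rpl26 fell furthest (-0.87 ± 0.07) and the retrogene Rpl10l rose by 0.84, and many of these genes have processed pseudogenes that can share reads. After quantile normalization 12 of them were lower and 4 higher, with a median of -0.013. That setting gives all libraries the same distribution of values, and these genes are very abundant (median 1200 to 1570 FPKM per library). Whether the setting itself removed a joint fall at such levels was not tested, so this count is not set against that of the members. Nor was it tested for the Atp5 genes (median 294 to 385 FPKM per library). The differences between lists were not tested. Among 9 tested regulators of mitochondrial biogenesis 3 were lower (33.3%) and 1 was higher (11.1%). Median-of-ratios scaling gave 8 lower and 0 higher, and quantile normalization 5 and 0. The 3 lower as deposited were Mycn (-1.92 ± 0.19), Myc (-1.54 ± 0.07) and the coactivator gene Pprc1 (-0.60 ± 0.07). The nuclear receptor gene Esrra rose (0.34 ± 0.07).

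The lower counts of these lists, biogenesis regulators aside, shrank when the scramble or the Carm1 shRNA line was left out. So did the lower calls over all genes, from 2325 to 1381 (scramble line left out) and 1506 (Carm1 shRNA line left out). Without the scramble line the lower counts were 2 of the other mitoribosomal genes, 5 assembly factors, 4 translation factors, 7 synthetases, 13 DNA and RNA factors, 9 import genes, 3 NADH dehydrogenase genes, 1 Atp5 gene and 21 cytosolic ribosomal genes. Without the Carm1 shRNA line they were 3, 8, 4, 7, 12, 10, 4, 3 and 28 in the same order. Without the wild-type line they were 4, 10, 5, 11, 18, 15, 7, 2 and 49, again in that order. In that fit 5 biogenesis regulators and 2299 of all genes were lower.

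**Figure D3:**
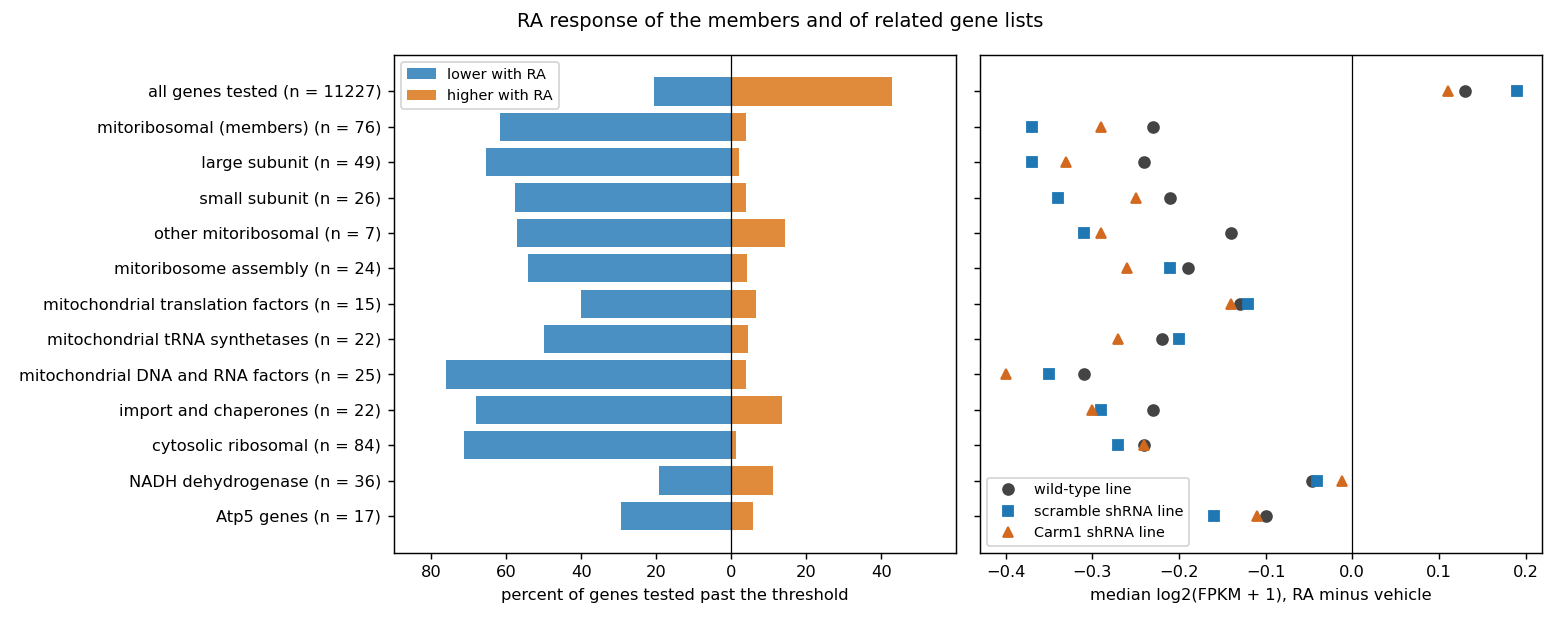
The left panel gives the percentage of tested genes in each list that passed as lower (to the left) or higher (to the right) with RA, and the right panel the median change per line on the log2(FPKM + 1) scale. In the values as deposited, the members' medians of -0.23, -0.37 and -0.29 per line lie on the other side of 0 from those of all genes tested.

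The size of the RA response differed between lines by description. The median change of the members was -0.23 in the wild-type line, -0.37 in the scramble line and -0.29 in the Carm1 shRNA line, where the medians over all genes were 0.13, 0.19 and 0.11. The scramble line had the most negative change for 40 members, the Carm1 shRNA line for 31 and the wild-type line for 5. With 1 pair of libraries per line, this order has no replicate. Pluripotency markers fell furthest in the scramble line as well, with a summed level of 44.4% of vehicle against 63.9% and 64.9% in the wild-type and Carm1 shRNA lines, and their part in the order was not tested.

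Whether the RA change of the Carm1 shRNA line differs from that of the control lines was tested as an interaction. In limma 0 of the 76 members passed, 0 had an unadjusted p under 0.05, and 0 of all genes passed (0%), while 409 of 11227 genes had an unadjusted p under 0.05. The differences in response ranged from -0.27 for Mrps34 to 0.26 for Mrpl1, with standard errors of 0.16 for both. Mrps6 (-0.26 ± 0.23), Mrpl14 (0.23 ± 0.18) and Mrps17 (-0.22 ± 0.17) came next. The model leaves 1 residual degree of freedom before moderation, and these values do not show that the responses were equal.

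The Carm1 shRNA line was compared with the scramble line over both treatments, to look for an effect on the members of lowering Carm1. In limma 0 of 76 members passed. Over all genes 2 of 11227 passed (0.0178%), and 1 of these was Carm1 itself (-1.98 ± 0.075, limma adjusted p = 0.0106). With so few calls over all genes, the count of 0 does not show that the members were equal between these lines. An unadjusted p under 0.05 was found for 3 of the 76 members and for 1188 of the 11227 genes. The median difference of the members was -0.019 and the differences ran from -0.32 to 0.28. Mrpl16 was at 30.3, 40.5 and 28.7 FPKM with vehicle and at 25.4, 26.9 and 24.1 FPKM with RA (-0.32 ± 0.11, limma adjusted p = 0.408). The scramble vehicle library was the one that stood apart. Mrpl15 was higher in the Carm1 shRNA line than in the scramble line (0.28 ± 0.09, limma adjusted p = 0.362), but with vehicle its 81.7 FPKM were close to the 80.4 FPKM of the wild-type line. Mrpl20 (-0.22 ± 0.10), Mrps34 (0.22 ± 0.10) and Mrps33 (-0.21 ± 0.07) did not pass either.

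Within a treatment the Carm1 shRNA line did not stand outside both controls by much for any member. With vehicle it lay above both other lines for 18 members (38.9% of all genes did) and below both for 27 (26.5% of all genes), and with RA above for 10 (28.0%) and below for 31 (35.0%). It lay more than 1.2-fold above or below both for 0 members under either treatment, where 7.12% (above) and 4.74% (below) of all genes did so with vehicle and 6.32% and 6.15% with RA. The wild-type line lay more than 1.2-fold above both hairpin lines for 6 members with vehicle (11.7% of all genes) and 11 with RA (8.96%), and below them for 2 (10.2%) and 1 (15.3%). With RA the wild-type line was above both others for 47 of the 76 members (33.4% of all genes) and the scramble line below both for 32 (22.2%).

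The clearest line differences among the members set the wild-type line apart from both hairpin lines. In the limma contrast of the scramble and wild-type lines over both treatments 2 of 76 members passed, against 1.79% of all genes. In the scramble line 1 was higher (1.32% of members, 0.748% of genes) and 1 lower (1.32% of members, 1.04% of genes). An unadjusted p under 0.05 was found for 17 of the 76 members and for 2680 of the 11227 genes. These counts are near the shares over all genes and do not set the members apart from other genes. Mrps35 (chromosome 6, 146991292 to 147019424), a small-subunit gene specific to mitochondria, was at 42.3, 71.0 and 71.8 FPKM with vehicle and at 33.3, 52.5 and 50.5 FPKM with RA. Every library of the hairpin lines was above every wild-type library, and the difference between scramble and wild-type lines was 0.69 ± 0.08 (limma adjusted p = 0.0347). Mrpl53 (chromosome 6, 83059102 to 83059926), of the large subunit, was at 28.6, 18.6 and 18.0 FPKM with vehicle and at 32.3, 21.6 and 19.2 FPKM with RA. Its wild-type libraries were above all others, with a difference of -0.58 ± 0.08 (limma adjusted p = 0.0428).

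The next members in size, Mrpl35 (-0.54 ± 0.08), Mrps25 (-0.50 ± 0.09) and Mrpl19 (-0.43 ± 0.08), did not pass (limma adjusted p = 0.0512, 0.0705 and 0.0732). They are named after their values were seen. With vehicle, Mrpl35 was at 12.1, 8.31 and 7.39 FPKM, Mrps25 at 8.17, 4.97 and 5.25 FPKM and Mrpl19 at 9.18, 6.79 and 6.91 FPKM, so the wild-type library was the highest each time. Mrps25 and Mrpl19 overlap Nr2c2 and Gcfc2 by 3536 and 1253 bases. The calls of Mrps35 and Mrpl53 rested on the settings. The count of members past the threshold was 0 with a pseudocount of 0.1 FPKM, without a filter on low values and without the Carm1 shRNA line, 1 after quantile normalization, 5 at a mean of at least 5 FPKM and 7 with limma's trend. Since the wild-type line is a single line, a difference of line history and an effect of carrying any hairpin cannot be told apart.

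**Figure D4:**
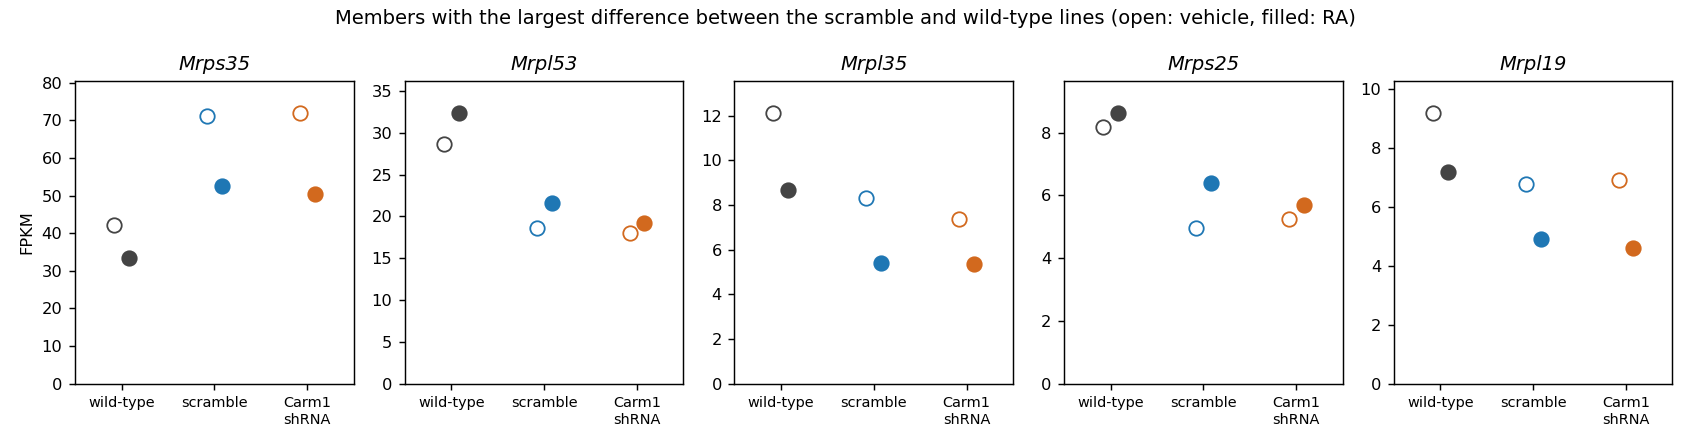
The FPKM of every library is plotted by line (open circles vehicle, filled circles RA, axes from 0) for the 5 members with the largest difference between the scramble and wild-type lines. For Mrps35 the wild-type libraries sit at 42.3 and 33.3 FPKM and the hairpin libraries between 50.5 and 71.8 FPKM, and for the other 4 genes the wild-type libraries are the highest with vehicle.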

How the data were processed

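RNA was sequenced as single-end 51-nucleotide reads in 6 libraries, per the labels' protocols. Per the submitters' processing notes, the authors made the deposited FPKM values with TopHat2 and Cufflinks on mm9; the sources used here name no versions and no scaling between libraries. Rows with a failed estimate (2 of 20793) were left out, and a repeated symbol was represented by its row of highest mean. The 11227 genes averaging 1 FPKM or more were tested on log2(FPKM + 1), which understates changes of low genes, with limma 3.58.1 in R 4.3.3. The model held line and treatment, with Benjamini-Hochberg adjustment across the tested genes. The interaction was fitted in a second model. The line is a block because both treatments were given to the same cell line; deviations from the treatment mean correlated within a line at 0.61, 0.48 and 0.57 (wild-type, scramble, Carm1 shRNA). The fit was tested on simulated data with changes larger than those of the members and without differences between lines. That test does not cover changes as small as those of the members. FPKM carry no counts, so read numbers are estimates from the value of 1 read in long transcripts with GENCODE M21 lengths; that estimator was revised after its first output was seen. Table starts count from 0, and 1 was added. S6 kinase genes and Rps19bp1, which match the symbol pattern for cytosolic ribosomal proteins, were left out of that list after its first results were seen. The members, lists, motifs and tests were chosen with earlier results of these data known. Members named were the 8 that fell furthest and all that rose, the largest line differences, the highest and lowest levels, the smallest changes, the Mrps18 paralogues and members of known role; of each list, up to 4 genes per direction. Alternatives covered the pseudocount, the filter, scaling, limma's trend, the block, each line left out and repeated symbols.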

Additional observations from a re-analysis of the deposited data

Results flagged for a closer look

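For 5 members the RA change in 1 line was opposite in sign to that of both other lines, each by description, since the difference was not tested with 1 pair of libraries per line. On the log2(FPKM + 1) scale Mrps6 changed by 0.35 in the scramble line, against -0.068 in the wild-type and -0.12 in the Carm1 shRNA line. Mrpl14 changed by -0.13 in the wild-type line, against 0.072 in the scramble and 0.20 in the Carm1 shRNA line. Mrps24 changed by 0.026 and Mrpl17 by 0.031 in the scramble line, with changes below 0 in both other lines. Mrps7 changed by 0.0052 in the wild-type line, against -0.021 and -0.10. All 5 members were among those that did not pass for RA.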

How the results depend on the processing

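The direction of the members' median change was kept under all 11 alternatives, from -0.26 without the scramble line to -0.35 without the wild-type line on leaving out a line, and -0.48 after median-of-ratios scaling. Members lower with RA numbered 27 to 46 and members higher 1 to 3 when a line was left out. Without the replicate block 39 were lower and 3 higher. Members higher numbered 6 without a filter and 6 with limma's trend, and 5 at a mean of at least 5 FPKM and 5 after quantile normalization. Of the 50 members called, 24 kept direction and call under every alternative, 23 of them lower. Mrpl41 (-0.20) and Mrps25 (-0.19) changed sign and passed as lower after quantile normalization. Members past the threshold between scramble and wild-type lines numbered 0 with a pseudocount of 0.1 FPKM, 0 without a filter, 5 at a mean of at least 5 FPKM, 1 after quantile normalization, 7 with the trend and 0 without the Carm1 shRNA line. The counts of 0 for the Carm1 shRNA line against scramble and for the interaction held under every alternative run; the interaction was not fitted without a line or without the block. The cause of these differences was not tested, and neither was the part of the smaller number of libraries when a line is left out. By the rough read estimates, low reads limit Mrpl41 most.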
